A study of Mus musculus with 8 samples.

Results

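Potassium channel genes of kidney epithelium were followed in 2 mouse kidney epithelial cell lines given the CDK7 inhibitor THZ1 or its solvent. The genes were Kcnj16, Kcnj15, Kcnk1, Kcnk5, Kcnk6, Kcnn4 and Kcnq1, which are 7 of the 18631 genes in the files. They were found by the Entrez gene ID of each symbol, and all 7 matched. The set was put together with results of these same libraries known. Kcnk1 was already known to differ between the lines under DMSO, and Kcnj16 to respond to THZ1 in both lines, so those differences are described below without a test. The values are FPKM, fragments scaled to transcript length and to the size of the library, so that levels of different genes can be set side by side. A rise or fall with THZ1 is therefore a change in a gene's share of its library. It does not give the amount of RNA per cell.

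The 4 groups had 2 libraries each. They were a Pkd1 -/- line (null, labelled PN) under 50 nM THZ1 for 6 h, the same null line under DMSO, a Pkd1 +/- line (heterozygous, labelled PH) under 50 nM THZ1 for 6 h, and the heterozygous line under DMSO. All cells grew in a DMEM-F12 medium whose supplements included IFNγ and T3. The labels give no time for DMSO. Pkd1 encodes polycystin-1, whose loss causes polycystic kidney disease. Each genotype is 1 cell line, so the Pkd1 genotype cannot be told apart from anything else in which these lines differ, and the labels do not say whether replicates were separate cultures. The p-values then measure only the spread between these libraries, which may be technical. In such bulk samples, fewer cells of a type and less RNA per cell cannot be told apart.

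Potassium channels set the membrane voltage of tubule cells and recycle the potassium that the sodium pump brings in. Inward rectifiers of the Kir4 and Kir5 kind sit in the basolateral membrane, and Kir5.1, the product of Kcnj16, conducts in kidney mainly when joined to Kir4.1 (Kcnj10) or Kir4.2 (Kcnj15). Tandem-pore channels (Kcnk genes) carry background potassium currents. In secretory epithelia such as cyst linings, potassium leaving the cell also holds the voltage that drives chloride out.

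The files give 1 value per gene and cannot show which transcript start was in use. The promoter windows taken from RefSeq cover 4 starts of Kcnj16 and 1 of Kcnk1, the members with the largest responses to drug and line. The 250 bases before each start are shown 5′ to 3′ from RefSeq, build GRCm38.p6, to show what lies at the starts of the members that results turn on. Capitals mark matches on either strand to 5 motifs, which did not overlap there. The TATA box was searched as TATAAA, the CAAT box as CCAAT and the GC box as GGGCGG. The AP-1 site was searched as TGANTCA and the HNF1 half-site as GTTAAT.
Kcnj16 start 1 (chr11:110967783-110968032, plus strand): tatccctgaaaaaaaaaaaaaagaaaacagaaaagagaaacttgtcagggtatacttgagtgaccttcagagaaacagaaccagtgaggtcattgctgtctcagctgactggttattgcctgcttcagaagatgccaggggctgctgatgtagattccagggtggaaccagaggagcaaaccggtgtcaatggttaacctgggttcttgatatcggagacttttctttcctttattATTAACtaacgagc
Kcnj16 start 2 (chr11:110997237-110997486, plus strand): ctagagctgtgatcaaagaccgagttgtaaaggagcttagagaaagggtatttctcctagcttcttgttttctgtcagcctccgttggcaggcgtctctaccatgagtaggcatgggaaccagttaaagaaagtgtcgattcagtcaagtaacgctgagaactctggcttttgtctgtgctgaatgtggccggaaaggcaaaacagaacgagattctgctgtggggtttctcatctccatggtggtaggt
Kcnj16 start 3 (chr11:111019335-111019584, plus strand): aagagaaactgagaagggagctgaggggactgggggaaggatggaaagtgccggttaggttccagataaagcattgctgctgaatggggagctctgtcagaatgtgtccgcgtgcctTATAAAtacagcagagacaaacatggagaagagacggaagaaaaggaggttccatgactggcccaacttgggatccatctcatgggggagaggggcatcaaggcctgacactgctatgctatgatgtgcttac
Kcnj16 start 4 (chr11:111023610-111023859, plus strand): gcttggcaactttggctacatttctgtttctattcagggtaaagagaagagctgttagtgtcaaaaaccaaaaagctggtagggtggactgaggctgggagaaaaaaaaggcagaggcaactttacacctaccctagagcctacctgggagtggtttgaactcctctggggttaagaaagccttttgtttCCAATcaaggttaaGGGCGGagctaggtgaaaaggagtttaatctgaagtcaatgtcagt
Kcnk1 start 1 (chr8:125994852-125995101, plus strand): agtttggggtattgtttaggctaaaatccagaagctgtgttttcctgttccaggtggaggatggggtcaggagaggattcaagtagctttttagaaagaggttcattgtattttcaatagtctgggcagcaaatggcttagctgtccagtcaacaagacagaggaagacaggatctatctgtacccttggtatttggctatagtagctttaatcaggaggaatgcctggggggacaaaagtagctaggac

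The 5 windows differ in what they hold. Kcnj16 start 1 had an HNF1 half-site beginning 14 bases before the start, start 3 a TATA box at 133 bases, and start 4 a CAAT box at 60 bases and a GC box at 46 bases. Kcnj16 start 2 and the Kcnk1 window had no match to any of the 5 motifs. Of 32851 promoter windows of this length, 12.4% held the TATA box, 33.9% the CAAT box, 32.7% the GC box, 6.75% the AP-1 site and 6.43% the HNF1 half-site. The Kcnk1 window had 0 CpG dinucleotides and the Kcnj16 windows 1 to 7, against a median of 6 over all windows. A match is only a run of letters, and no match says nothing about a factor. Starts 2 to 4 of Kcnj16 and the start shown for Kcnk1 lie inside the gene spans given below, so other starts upstream are annotated.

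The libraries were alike in depth, and replicates correlated closely, but those of the null line differed in the number of genes above 0. From the steps on which low values fall, 1 fragment on a transcript of 2500 bases was worth 0.0219 to 0.0231 FPKM. Between 14007 and 15439 genes were above 0, with 15439 and 14245 in null DMSO replicates 1 and 2. Null THZ1 replicates 1 and 2 had 14305 and 14900, while the heterozygous pairs lay closer together. Replicates correlated across genes at 0.9988 to 0.9992 (Pearson, log2 scale). Pkd1 had 1.22 and 1.21 FPKM in null THZ1 cells, 1.69 and 1.32 in null DMSO cells, 3.71 and 4.20 in heterozygous THZ1 cells and 4.58 and 5.30 in heterozygous DMSO cells, so it was lower in every null library but not at 0. The epithelial markers Krt8 and Krt18 (keratins) and Cdh16 (kidney cadherin) were at 145.94 FPKM or more in all 8 libraries, whereas Epcam and Cdh1 (E-cadherin) stayed at or below 0.24 and 0.42 FPKM. The 7 intercalated cell markers summed to at most 0.09 FPKM. Segment markers differed between the lines and named no single segment. Of the thick limb and distal tubule markers 0 of 9 passed the filter of 1 FPKM, with Slc12a1 at or below 0.02 FPKM, while Umod was at 0 in all null libraries and at 1.62 to 2.25 FPKM in the heterozygous ones. Of 12 principal cell markers 5 passed, namely Hsd11b2, Gata3 and the keratins Krt8, Krt18 and Krt19, which are also epithelial markers. All 5 were lower in null than in heterozygous DMSO cells by the limma fit described below, where 41.0% of all tested genes were called lower. Hsd11b2 was at 2.15 to 3.09 FPKM in null and 9.46 to 10.93 in heterozygous libraries. Aqp2, the defining water channel gene of principal cells, was at or below 0.04 FPKM.

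Of the 7 channel genes, 3 were expressed at a mean of at least 1 FPKM over the 8 libraries and 4 were not. Kcnk1, Kcnj16 and Kcnk5 averaged 30.2, 16.5 and 3.19 FPKM. Kcnj15, Kcnk6, Kcnq1 and Kcnn4 averaged 0.195, 0.129, 0.03 and 0.0188 FPKM and were below 1 in every library. No member lay near the limit of 1 FPKM, with Kcnk5 the lowest above it and Kcnj15 the highest below it. The 3 expressed genes are the ones that enter the fit across all genes described in the methods, and the other 4 were tested only where that filter was left out.

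**Figure D1:**
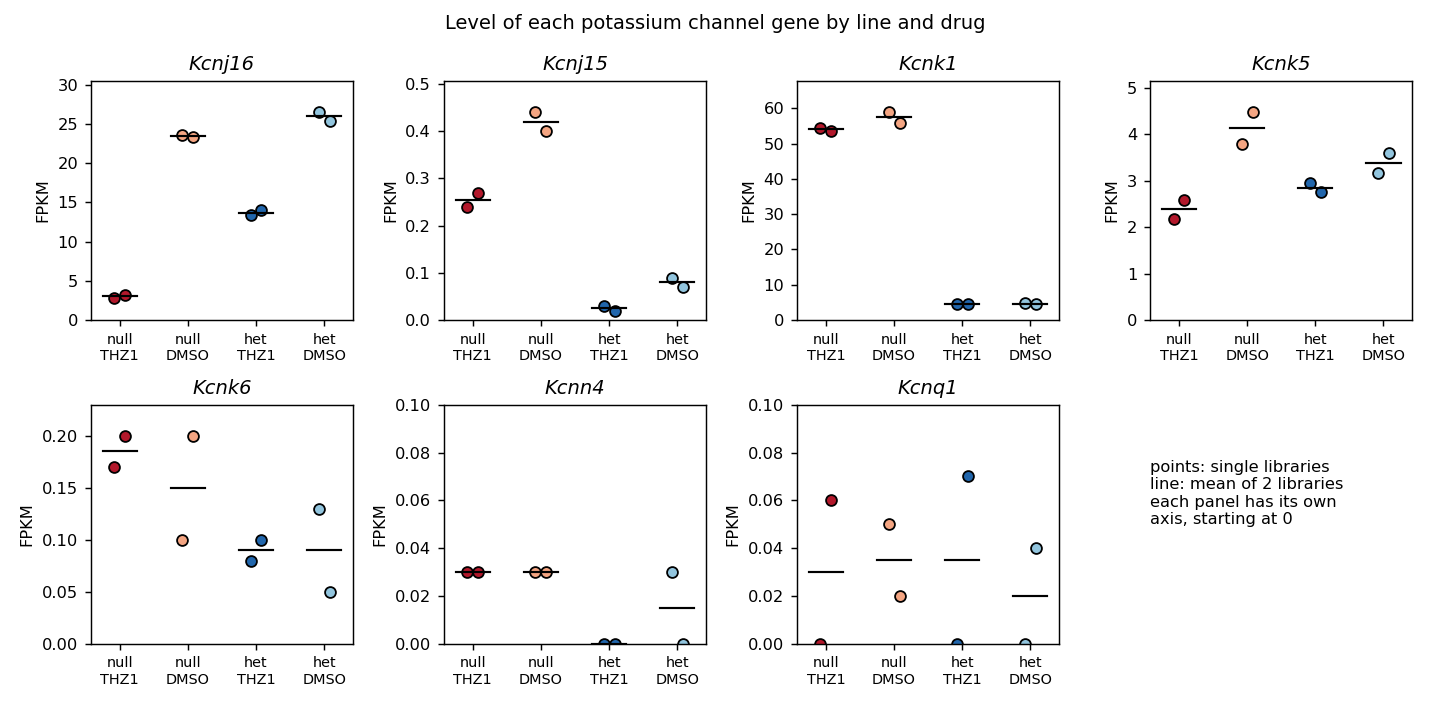
FPKM of each of the 7 channel genes (vertical axes, each from 0) in the 8 libraries (points) of the 4 groups, with the mean of 2 libraries as a line. Kcnj16 is lowest in null THZ1 cells at 2.87 and 3.19 FPKM, Kcnk1 sits above 53 FPKM in all null libraries and below 5 in all heterozygous ones, and the 4 genes other than Kcnj16, Kcnk1 and Kcnk5 stay below 0.5 FPKM.

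The inward rectifier Kcnj16 (chromosome 11, 110968033 to 111027968, GRCm38) was lower with the drug in both lines. It had 2.87 and 3.19 FPKM in null THZ1 cells against 23.60 and 23.39 in null DMSO cells. It had 13.37 and 14.01 FPKM in heterozygous THZ1 cells against 26.50 and 25.44 in heterozygous DMSO cells. The THZ1 libraries lay below the DMSO libraries in both lines, with no overlap, and the null THZ1 libraries were the lowest of all.

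Put as means, Kcnj16 under THZ1 stood at 12.9% of its DMSO level in null cells and at 52.7% in heterozygous cells. The log2(FPKM + 1) difference between THZ1 and DMSO was -2.60 ± 0.06 (SE) in null cells and -0.88 ± 0.06 in heterozygous cells. Among 10731 genes these ranked 4 and 8 from the lowest difference of their comparisons. Kcnj16 was chosen on these responses, so the ranks are a description and no support. The response in null cells minus that in heterozygous cells was -1.73 ± 0.09 (SE) on the log2 scale. The median of all tested genes was -0.17 for THZ1 in null cells and 0.01 in heterozygous cells.

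Without the drug Kcnj16 was not called between the lines. With DMSO, null minus heterozygous cells came to -0.14 ± 0.06 (SE; 95% interval -0.27 to -0.00487) on the log2 scale, with a limma adjusted p of 0.0606 that missed the threshold of 0.05. It passed without null THZ1 replicate 1 (0.0383) or replicate 2 (0.0386) in the fit and with a fit of the DMSO groups alone (0.0417), over alternatives of 0.0383 to 0.267. Under THZ1 the means were 3.03 ± 0.226 FPKM in null cells and 13.7 ± 0.453 in heterozygous cells (SD, n = 2 each), a log2 difference of -1.87 ± 0.06 (SE). From high to low the order of the groups was heterozygous DMSO, null DMSO, heterozygous THZ1 and null THZ1, and the pair of DMSO groups was not parted by the test.

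The genes of both Kir5.1 partners were close to 0 in these cells. Kcnj15, which encodes Kir4.2 (chromosome 16, 95257558 to 95300260), had 0.24 and 0.27 FPKM in null THZ1 cells, 0.44 and 0.40 in null DMSO cells, 0.03 and 0.02 in heterozygous THZ1 cells and 0.09 and 0.07 in heterozygous DMSO cells. The null libraries lay above all heterozygous ones, and within each line the THZ1 libraries lay below the DMSO libraries. At its longest coding transcript of 5705 bases this comes to roughly 2.1 to 44.6 fragments per library, so the heterozygous values rest on few fragments.

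Kcnj15 entered no test under the filter. Without the filter it was called higher in null than in heterozygous cells under DMSO (0.39 ± 0.03 SE on the log2(FPKM + 1) scale, limma adjusted p = 5.27e-05) and under THZ1 (0.29 ± 0.03, limma adjusted p = 9.86e-05). In that setting 46.4% and 56.4% of 17312 genes were called. THZ1 against DMSO was -0.18 ± 0.03 in null cells (limma adjusted p = 0.00141, with 49.6% of genes called) and -0.08 ± 0.03 in heterozygous cells (limma adjusted p = 0.135, with 7.56% called). The difference of these responses was -0.10 ± 0.04 (limma adjusted p = 0.074, with 35.3% called). The other partner gene, Kcnj10, encoding Kir4.1, had 0.07 and 0.11 FPKM in null THZ1 cells, 0.13 and 0.14 in null DMSO cells, 0.05 and 0.10 in heterozygous THZ1 cells and 0.07 and 0.09 in heterozygous DMSO cells. Kcnj16 RNA was thus far above the RNA of both partner genes in every library.

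The tandem-pore channel Kcnk1 (TWIK-1, a weak inward rectifier; chromosome 8, 125993655 to 126030685) was higher in null than in heterozygous cells. It had 54.50 and 53.73 FPKM in null THZ1 cells and 58.93 and 56.00 in null DMSO cells. It had 4.63 and 4.47 FPKM in heterozygous THZ1 cells and 4.84 and 4.47 in heterozygous DMSO cells. All 4 null libraries lay far above all 4 heterozygous ones, while THZ1 and DMSO libraries of a line were close together.

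Under DMSO the mean of Kcnk1 was 12.3-fold higher in null than in heterozygous cells, a log2 difference of 3.37 ± 0.06 (SE), which is the contrast that put it on the list. In the THZ1 libraries it was 11.9-fold higher (log2 3.31 ± 0.06 SE, limma adjusted p = 2.61e-13, higher in both null libraries). The adjusted p over the alternatives was 1.76e-14 to 5.78e-07. The same 2 lines are compared under DMSO and THZ1, so the THZ1 libraries add no further line of either genotype. Results of the THZ1 libraries were also known when the set was put together, so this p-value is no independent support.

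THZ1 against DMSO was not called for Kcnk1 in either line. The difference between THZ1 and DMSO was -0.08 on the log2 scale in null cells (95% interval -0.21 to 0.04, limma adjusted p = 0.192) and -0.03 in heterozygous cells (-0.15 to 0.10, limma adjusted p = 0.771). In null cells the sign depended on scaling: it was 0.16 with median-of-ratios scaling (limma adjusted p = 0.0192), 0.12 with upper-quartile scaling (0.0592) and -0.17 with library totals (0.0203). The responses of the lines differed by -0.06 (95% interval -0.23 to 0.12, limma adjusted p = 0.552). From high to low the groups ran null DMSO, null THZ1, heterozygous DMSO and heterozygous THZ1, with neighbours within a line not parted by the test.

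Genes known from fibroblasts were higher in the same libraries in which Kcnk1 was high. The 10 fibroblast markers summed to 303 to 318 FPKM in null THZ1 cells, 262 to 263 in null DMSO cells, 39.3 to 42.3 in heterozygous THZ1 cells and 42.8 to 43.3 in heterozygous DMSO cells, and 4 of the 10 passed the filter (Acta2, Tagln, Postn and Col1a1). Among the defining markers, Col1a2, Col3a1 and Pdgfra were at or below 0.14 FPKM, Lum at or below 0.05 and Dcn at or below 0.39 in all libraries. Endothelial markers summed to at most 1.16 FPKM and immune markers to at most 12.9. Of 12 proximal tubule markers 3 passed the filter, and they did not go the same way. Lrp2 (megalin) and Ass1 were high where Kcnk1 was, at 4.45 to 5.14 and 213 to 227 FPKM in null libraries. In heterozygous libraries they were at 0.45 to 0.51 and 70.45 to 75.23 FPKM. The remaining marker, Aqp1, was lower where Kcnk1 was high, at 58.75 to 105.34 FPKM in null and 184.66 to 232.98 in heterozygous libraries. The part of such genes in the Kcnk1 difference was not tested.

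Kcnk5 (TASK-2, a tandem-pore channel opened by alkaline pH and known from the proximal tubule; chromosome 14, 20140057 to 20181782) fell with THZ1 in null cells. It had 2.18 and 2.59 FPKM in null THZ1 cells against 3.79 and 4.48 in null DMSO cells. It had 2.95 and 2.76 FPKM in heterozygous THZ1 cells against 3.17 and 3.59 in heterozygous DMSO cells. The THZ1 libraries lay below the DMSO libraries in each line, by a wider gap in null cells.

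In null cells the difference was -0.60 ± 0.10 on the log2 scale (SE, limma adjusted p = 9.81e-05, lower in both THZ1 libraries). It was -0.42 with median-of-ratios scaling (limma adjusted p = 0.00157), with a range over the alternatives of -0.77 to -0.42 and of 3.02e-05 to 0.00316 in adjusted p. In heterozygous cells it was -0.18 ± 0.10 (limma adjusted p = 0.195). The test of the difference between the responses gave -0.42 ± 0.14 (SE, limma adjusted p = 0.0196). That call was lost without null DMSO replicate 2 (0.0896), null THZ1 replicate 1 (0.0751), heterozygous DMSO replicate 1 (0.0723) or heterozygous THZ1 replicate 1 (0.0657), with median-of-ratios (0.143) or upper-quartile scaling (0.119), and with no filter on low values (0.072).

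Between the lines Kcnk5 was not called. Null minus heterozygous cells was 0.23 ± 0.10 under DMSO (SE, 95% interval 0.02 to 0.44, limma adjusted p = 0.0529) and -0.19 ± 0.10 under THZ1 (-0.40 to 0.02, limma adjusted p = 0.0876). Under DMSO it passed without null DMSO replicate 1 (0.0287), heterozygous DMSO replicate 2 (0.0462), null THZ1 replicate 1 (0.0433) or replicate 2 (0.0437), and with each of the 3 scalings (0.0217 to 0.0324). Under THZ1 it passed without null THZ1 replicate 2 (0.0398), and its sign turned with median-of-ratios (0.03) and upper-quartile scaling (0.02). From high to low the groups ran null DMSO, heterozygous DMSO, heterozygous THZ1 and null THZ1, and no pair of neighbours was parted by the test.

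**Figure D2:**
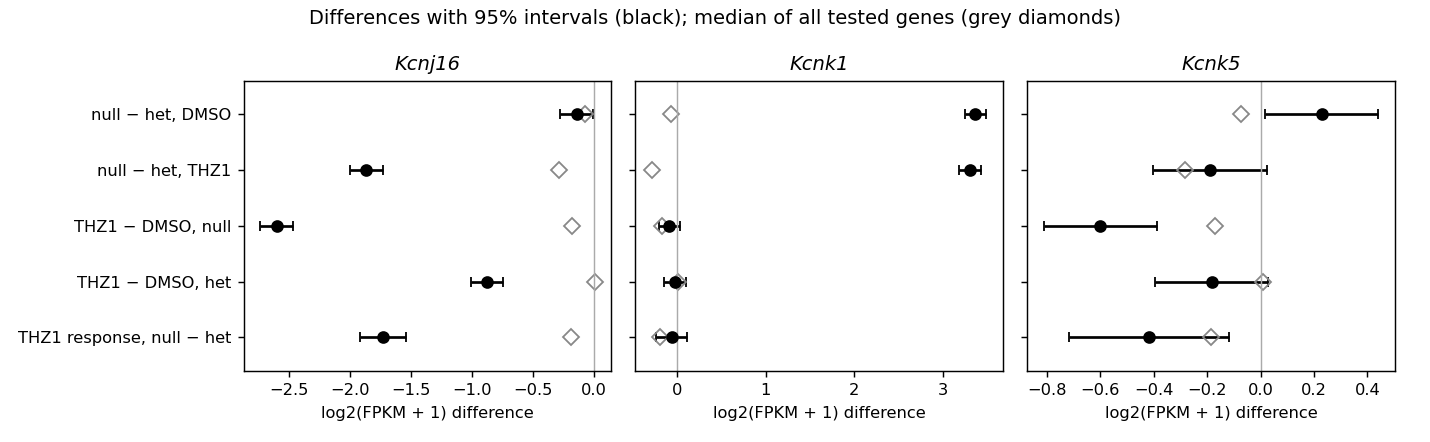
Differences in log2(FPKM + 1) of Kcnj16, Kcnk1 and Kcnk5 (horizontal axes, a scale per gene) in 5 comparisons (rows), with 95% intervals from the fit in black and the median of all 10731 tested genes as grey diamonds. Kcnj16 stands apart in the drug comparisons (-2.60 and -0.88), Kcnk1 in the line comparisons (3.37 and 3.31), and Kcnk5 has its lowest value with THZ1 in null cells (-0.60).

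Set against all genes, the counts of called members rest on 3 genes and a high background. Under DMSO 1 of the 3 tested members was called between the lines (Kcnk1, higher), where 70.0% of 10731 genes were called, 29.0% higher and 41.0% lower. Under THZ1 2 were called between the lines (Kcnk1 higher, Kcnj16 lower), where 83.2% were, 25.1% higher and 58.1% lower. THZ1 against DMSO called 2 in null cells (Kcnj16 and Kcnk5, lower), where 75.7% of genes were called, 24.6% higher and 51.1% lower, and 1 in heterozygous cells (Kcnj16, lower), where 22.4% were called, 12.2% higher and 10.3% lower. The difference between the responses was called for 2 (Kcnj16 and Kcnk5, more negative in null cells), where 60.2% of genes were called, 15.1% more positive and 45.1% more negative. Since Kcnj16 and Kcnk1 were chosen on these contrasts, nothing about the set is read from the counts.

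The 3 remaining members were near the limit of detection. Kcnk6 (TWIK-2, a tandem-pore channel studied mainly in vessels and macrophages; chromosome 7, 29221928 to 29232522) had 0.17 and 0.20 FPKM in null THZ1 cells, 0.10 and 0.20 in null DMSO cells, 0.08 and 0.10 in heterozygous THZ1 cells and 0.13 and 0.05 in heterozygous DMSO cells. This is roughly 3.7 to 14.7 fragments per library at 4084 bases, and the groups overlapped except that both null THZ1 libraries lay above all heterozygous ones. Without the filter its limma adjusted p was 0.0906 to 1 over the 5 comparisons.

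Kcnn4 (KCa3.1, a calcium-activated channel that aids chloride secretion in epithelia; chromosome 7, 24369826 to 24385212) was listed at 0.03 FPKM in all 4 null libraries and in heterozygous DMSO replicate 1, and at 0 in the other 3. At 1990 bases 0.03 FPKM is about 1.0 to 1.1 fragments, so no difference could be detected at this depth. Kcnq1 (KvLQT1, a voltage-gated channel; chromosome 7, 143106877 to 143427050) had 0 and 0.06 FPKM in null THZ1 cells, 0.05 and 0.02 in null DMSO cells, 0 and 0.07 in heterozygous THZ1 cells and 0 and 0.04 in heterozygous DMSO cells. These are at most 3.9 fragments at 3029 bases, and the groups overlapped. Kcnq1 lies over the antisense RNA gene Kcnq1ot1, and the sources used here do not give the handling of strand, so reads of the 2 genes may not be told apart. Its partner subunit gene Kcne1 was at or below 0.04 FPKM.

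Other potassium channel genes were mostly silent, which left a few genes to make up the pool. Of 75 genes for pore-forming subunits on the lists, members included, 5 had a mean of at least 1 FPKM over the 8 libraries, and 9 were at 0 in every library. Beside the 3 members these were Kcnk10 (TREK-2, a tandem-pore channel opened by stretch and lipids) and Kcnd1 (a voltage-gated channel of the Kv4 family). None of the 13 other inward rectifiers and none of the 14 calcium- or sodium-activated channels and their helpers passed the filter. Kcnj1, the secretory channel ROMK, stayed at or below 0.07 FPKM and Kcnma1, the large-conductance BK channel, at or below 0.03.

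Summed over the 75 genes, the level was 64.7 and 65.8 FPKM in null THZ1 cells, 97.3 and 93.9 in null DMSO cells, 27.7 and 28.1 in heterozygous THZ1 cells and 43.0 and 42.5 in heterozygous DMSO cells. Kcnk1 made up 84.3% and 81.6% of this in null THZ1 cells, 60.6% and 59.6% in null DMSO cells, 16.7% and 15.9% in heterozygous THZ1 cells and 11.3% and 10.5% in heterozygous DMSO cells. Kcnj16 made up 4.44% and 4.85% in null THZ1 cells, 24.3% and 24.9% in null DMSO cells, 48.3% and 49.8% in heterozygous THZ1 cells and 61.7% and 59.8% in heterozygous DMSO cells. The leading channel RNA was therefore Kcnk1 in null cells and Kcnj16 in heterozygous cells, in all libraries.

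**Figure D3:**
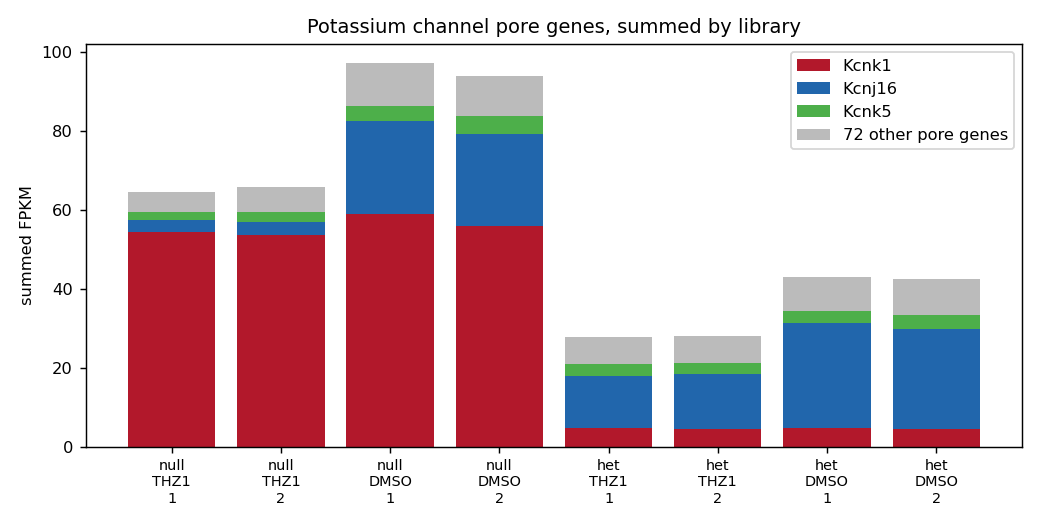
Summed FPKM of 75 potassium channel pore genes in each of the 8 libraries, stacked by Kcnk1, Kcnj16, Kcnk5 and the 72 others. The null bars are mostly Kcnk1 (59.6% to 84.3%), and Kcnj16 is the largest share of the heterozygous bars (48.3% to 61.7%).

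Kcnk10 was also lower under the drug. It had 0.81 and 1.35 FPKM in null THZ1 cells against 3.65 and 3.28 in null DMSO cells, and 2.84 and 2.27 in heterozygous THZ1 cells against 3.73 and 4.19 in heterozygous DMSO cells. It fell with THZ1 in null cells (log2 -1.11 ± 0.12 SE, limma adjusted p = 3.35e-06) and in heterozygous cells (-0.48 ± 0.12, limma adjusted p = 0.0162). The heterozygous call was lost without heterozygous DMSO replicate 2 (0.0857) or THZ1 replicate 2 (0.135) and with no filter on low values (0.104). Kcnd1 had 0.90 and 1.03 FPKM in null THZ1 cells against 1.78 and 1.53 in null DMSO cells, and fell by 0.43 on the log2 scale (limma adjusted p = 0.00123). In heterozygous cells its log2 difference was -0.07 ± 0.10 (limma adjusted p = 0.616).

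**Figure D4:**
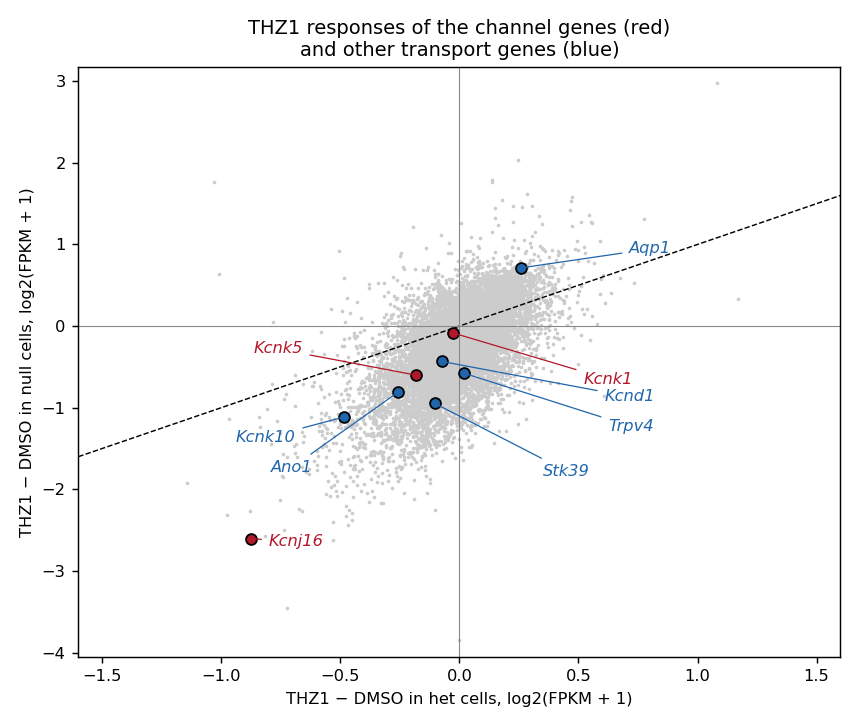
THZ1 minus DMSO in log2(FPKM + 1) in null cells (vertical) against heterozygous cells (horizontal) for 10731 genes in grey, with the 3 tested channel members in red and other transport genes in blue. The dashed line marks equal responses, and 2 genes lie outside the horizontal axis. Kcnj16 (-2.60 and -0.88) lies at the low edge and Kcnk1 (-0.08 and -0.03) near the origin.

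The profiles closest to those of Kcnj16 and Kcnk1 were sought among the tested genes. Members, genes without a symbol, predicted genes, clone names and pseudogenes were passed over. Likeness was the root mean square difference of log2(FPKM + 1) over the 8 libraries after each gene was centred on its own mean. For Kcnj16 the nearest were Ankrd49 (0.14), Lrrc14 (0.16), Nmnat3 (0.18), Eya2 (0.22) and Klhdc7a (0.24), against a median of 1.02 over all tested genes. Nmnat3, for example, averaged 0.72 FPKM in null THZ1 cells, 8.11 in null DMSO cells, 4.94 in heterozygous THZ1 cells and 7.57 in heterozygous DMSO cells. For Kcnk1 they were Scamp5 (0.08), Ltbp2 (0.09), Cyp4a12b (0.12), Rtl8b (0.15) and Bex1 (0.15), against a median of 1.77. Cyp4a12b averaged 31.8 FPKM in null THZ1 cells, 34.7 in null DMSO cells, 2.22 in heterozygous THZ1 cells and 2.005 in heterozygous DMSO cells, and Rtl8b and Bex1 were listed at 0 in all heterozygous libraries. In heterozygous THZ1 and DMSO cells Scamp5 averaged 0.175 and 0.12 FPKM and Ltbp2 0.5 and 0.545, while Kcnk1 averaged 4.55 and 4.655. The log2(FPKM + 1) scale understates fold changes of such low genes, so these profiles are alike on that scale and not in fold change.

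**Figure D5:**
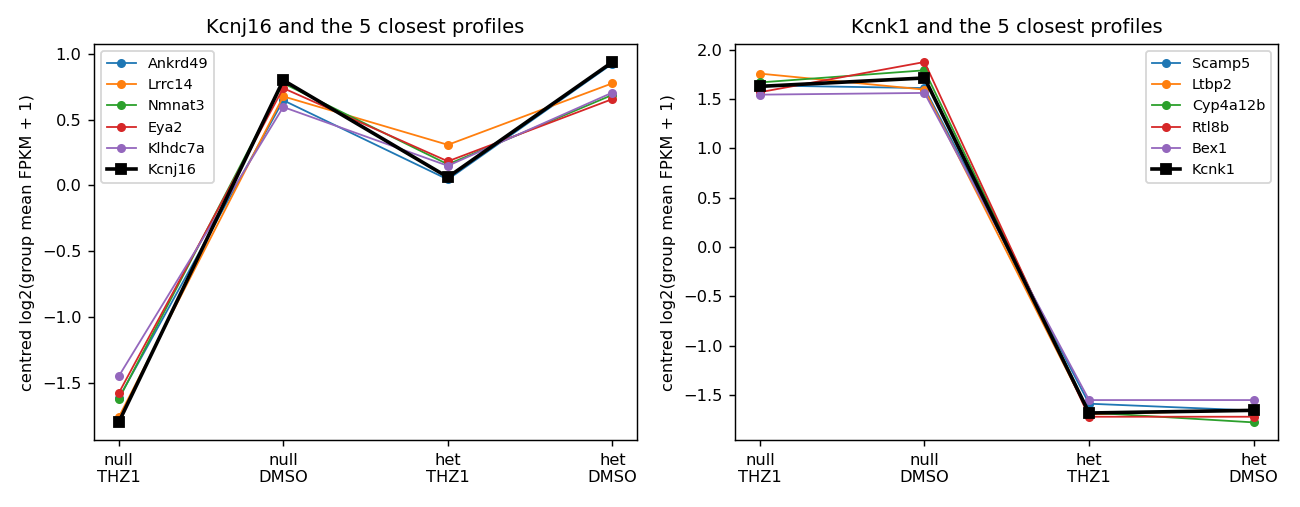
Group means in log2(FPKM + 1), each gene centred on its own mean over the 4 groups, for Kcnj16 (left, black) and Kcnk1 (right, black) with their 5 closest profiles in colour. The left profiles dip deepest in null THZ1 cells, and the right ones are high in both null groups and low in both heterozygous groups.

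Pumps, carriers and partner subunits work beside the channels. The counts of called genes on their lists stand beside a background of 24.6% of genes called higher and 51.1% lower with THZ1 in null cells, 12.2% and 10.3% in heterozygous cells, and 29.0% and 41.0% between the lines under DMSO. Of 13 genes for sodium, potassium and proton pumps 4 passed the filter. Atp1b3, a beta subunit gene of the sodium pump, had 107.69 and 111.49 FPKM in null THZ1 cells against 90.29 and 90.86 in null DMSO cells and rose (log2 0.27 ± 0.04 SE, limma adjusted p = 4.48e-05), and Fxyd5, a pump regulator, was higher in null than in heterozygous DMSO cells (0.51 ± 0.08, limma adjusted p = 0.000131). Atp1b1, a further beta subunit gene, averaged 105 FPKM in null THZ1 cells, 99.96 in null DMSO cells, 122 in heterozygous THZ1 cells and 107 in heterozygous DMSO cells. With THZ1 2 members rose and 0 fell in null cells (median log2 0.17, against -0.17 over all genes) and 2 rose and 0 fell in heterozygous cells (0.14 against 0.01). Between the lines under DMSO 2 were higher and 0 lower (0.07 against -0.07). The calls of Atp1b1 and Atp1b3 in heterozygous cells and of Atp1b3 between the lines did not hold in every alternative.

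Accessory subunits and partners had 7 of 19 genes past the filter. The beta subunit genes Kcnab2 and Kcnab3 were lower in null than in heterozygous DMSO cells (log2 -1.30 ± 0.09 SE, limma adjusted p = 8.01e-08, and -0.44 ± 0.09, limma adjusted p = 0.000747). Kcnab2 averaged 0.23 FPKM in null THZ1 and 0.455 in null DMSO cells, against 1.54 and 2.575 in the heterozygous groups. It passed the filter of 1 FPKM only through the heterozygous libraries, so its p-value is no independent support. Kcnab3 averaged 0.6 and 1.225 FPKM in the same null groups, against 2.105 and 2.01. The calmodulin genes Calm2 and Calm3, whose product is the calcium sensor of KCa3.1, averaged 102 to 396 FPKM over the groups and rose with THZ1 in null cells by 0.36 and 0.26 on the log2 scale (limma adjusted p at most 0.000848). Nedd4l, a ubiquitin ligase for channels, rose (0.26 ± 0.05, limma adjusted p = 0.000466) and Akap9, a scaffold of Kcnq1, fell in null cells (-0.40 ± 0.07, limma adjusted p = 0.000195). In this list 4 rose and 3 fell with THZ1 in null cells (median 0.26), where 75.7% of all genes were called, 2 rose and 2 fell in heterozygous cells (0.05), where 22.4% were, and 1 was higher and 3 lower in null DMSO than in heterozygous DMSO cells (0.05). Not held in every alternative were Kcnab2 with THZ1 in null cells and Calm2 and Akap9 in heterozygous cells.

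Among cation chloride cotransporters and their WNK kinases, 9 of 14 genes passed the filter. Slc12a4, the potassium chloride exporter KCC1, averaged 111 FPKM in null THZ1 cells and 84.8 in null DMSO cells, and 49.9 in heterozygous THZ1 cells and 40.6 in heterozygous DMSO cells. It was higher in null cells under DMSO (log2 1.04 ± 0.04 SE, limma adjusted p = 4.61e-10) and rose with THZ1 in null (0.39 ± 0.04, limma adjusted p = 3.45e-06) and heterozygous cells (0.29 ± 0.04, limma adjusted p = 0.00113). Stk39, the kinase SPAK that acts on such carriers, fell with THZ1 in null cells (-0.95 ± 0.05, limma adjusted p = 6.06e-09). Slc12a2, the cotransporter NKCC1 that loads chloride for secretion, was higher in null DMSO cells (0.41 ± 0.06, limma adjusted p = 3.77e-05). Wnk4 (0.36) and Cul3 (-0.46) also differed between the lines under DMSO, each at a limma adjusted p of at most 0.000388. The range of group means was 16.7 to 21.7 FPKM for Slc12a7, 49.7 to 63.9 for Wnk1 and 16.8 to 17.4 for Oxsr1. With THZ1 4 rose and 3 fell in null cells (median -0.04), and 2 rose and 0 fell in heterozygous cells (0.01), while 5 were higher and 1 lower between the lines under DMSO (0.20). Those of Wnk1, Wnk4, Slc12a7 and Cul3 in null cells, of Wnk4 in heterozygous cells and of Slc12a7 between the lines did not hold in every alternative.

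Of 19 epithelial chloride, sodium and water channel genes 10 passed the filter. Ano1, a calcium-activated chloride channel, had 12.26 and 11.88 FPKM in null THZ1 cells against 21.89 and 22.01 in null DMSO cells and fell (log2 -0.81 ± 0.06 SE, limma adjusted p = 8.48e-08), as did the cation channel genes Trpv4 (-0.58 ± 0.04, limma adjusted p = 5.96e-08) and Pkd2 (-0.57 ± 0.05, limma adjusted p = 3.87e-07). The water channel gene Aqp1 rose (0.71 ± 0.06, limma adjusted p = 1.42e-07) but was lower in null than in heterozygous DMSO cells (-1.59 ± 0.06, limma adjusted p = 1.11e-10). Bsnd, a subunit of kidney chloride channels, and Lrrc8a, a volume-regulated channel, were higher in null DMSO cells (1.56 and 0.64, limma adjusted p at most 3.38e-07). Bsnd averaged 4.06 FPKM in null DMSO and 0.715 in heterozygous DMSO cells. It passed the filter of 1 FPKM only through the null libraries, so its p-value is no independent support. Ano6 averaged 37.4 to 47.2 FPKM and Clcn3 23.5 to 27.6 over the groups. With THZ1 2 rose and 7 fell in null cells (median -0.41), where 51.1% of all genes fell too, 1 rose and 2 fell in heterozygous cells (-0.03), and 5 were higher and 2 lower between the lines under DMSO (0.18). Those of Ano6, Clcn3 and Lrrc8a in null cells and of Ano1 and Aqp1 in heterozygous cells did not hold in every alternative.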

How the data were processed

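RNA selected with oligo dT was sequenced in 8 libraries, 2 in each of 4 groups taken from the sample titles. The deposited values are the authors' FPKM, 1 per gene and library. Bowtie2 and build mm10 are named, per the submitters' processing notes, while no source used here gives the counting program, the annotation or the strand. Symbols came from the RefSeq table of GRCm38.p6 (18592 of 18631 IDs), and transcripts from GENCODE on the same build.

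Genes with a mean of at least 1 FPKM were kept (10731). On log2(FPKM + 1) of all 8 libraries a mean for each group was fitted (limma 3.58.1, R 4.3.3), with 4 residual degrees of freedom and a trended prior, and without further scaling. Fold changes on this scale understate low genes. Tests are two-sided, with Benjamini-Hochberg adjustment over all tested genes and a call at an adjusted p below 0.05. The script was tested on simulated data. Depth was estimated from the steps of values of 0.06 to 0.4 FPKM in transcripts of 500 to 2500 bases; fragment numbers of low genes use it with the longest coding transcript and are rough.

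The members and the 17 gene lists were chosen with earlier results of these data known. Named genes were the members, list genes with a group mean of at least 10 FPKM, the 2 called list genes with the largest difference per comparison, and the 5 closest profiles. Alternatives were scalings, pseudocount, filter, replicate block, smaller fits and leaving out each library. Of the list genes, Kcna10, Kcns1 and Pvalb were not analysed here. A few other list genes are counted but not reported by name.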

Additional observations from a re-analysis of the deposited data

Results flagged for a closer look

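The THZ1 response differed between null and heterozygous cells for the genes below. Apart from Kcnj16, each was called by the interaction term of the fit at a limma adjusted p below 0.05. Of all tested genes 60.2% passed, 15.1% more positive and 45.1% more negative in null cells. The median difference over all tested genes was -0.19, so values near it, such as that of Ano6, are no larger than the general shift. For Kcnj16 the difference was -1.73 on the log2 scale, given with no test because the gene was chosen on these responses. For Kcnk5 it was -0.42 (limma adjusted p = 0.0196). Among other channel genes and partners it was -0.63 for Kcnk10, -0.36 for Kcnd1, -0.52 for Kcnab3, 0.18 for Calm2 and 0.23 for Nedd4l. Among pumps, cotransporters and kinases it was 0.27 for Wnk1, -0.68 for Wnk4 and -0.84 for Stk39. Among epithelial channels it was -0.55 for Ano1, -0.19 for Ano6 (above 0 with median-of-ratios and upper-quartile scaling), 0.17 for Clcn3, -0.56 for Bsnd, 0.45 for Aqp1, -0.24 for Pkd2 and -0.59 for Trpv4. Bsnd was below 1 FPKM in all heterozygous libraries. Several of the calls above did not hold in every alternative. With median-of-ratios and upper-quartile scaling Kcnk5 (limma adjusted p = 0.143 and 0.119), Kcnd1 (0.149 and 0.137) and Pkd2 (0.982 and 0.799, at a difference of -0.0023 and -0.0232) were lost. With library totals Clcn3 was lost (0.146). With no filter Kcnk5 (0.072), Kcnk10 (0.0591), Wnk1 (0.07), Ano6 (0.074) and Clcn3 (0.052) were lost. With 1 library left out, Ano6 was lost in 6 of 8 cases, Clcn3 in 7, Kcnd1 in 5, Kcnk5 in 4 and Wnk1 in 3, Calm2 was lost without null DMSO replicate 2 (0.0598) and Nedd4l without heterozygous THZ1 replicate 1 (0.0634).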

How the results depend on the processing

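Kcnj16 in the drug comparisons and Kcnk1 in the line comparisons kept their sign in all alternatives run, with ranges of -2.92 to -2.41 (Kcnj16, null), -0.92 to -0.85 (Kcnj16, heterozygous) and 3.32 to 3.60 (Kcnk1, DMSO). Median-of-ratios scaling moved the median of all genes by 0.23 in the THZ1 comparison of null cells and by 0.29 between the lines under THZ1, and gave 4488 higher and 3837 lower genes in null cells (2645 and 5479 unscaled), 4329 and 4422 between the lines under THZ1 (2689 and 6240) and 3539 and 3064 in the difference of responses (1620 and 4843). Library totals gave 754 higher and 1492 lower genes in heterozygous cells (1306 and 1100 unscaled). The number of called members between the lines under DMSO was 1. It was 2 with each of the 3 scalings, with no filter, with the replicate block and with the DMSO groups alone, and 1 to 3 with 1 library left out. The number for the difference of responses was 2. It was 1 with median-of-ratios and upper-quartile scaling, with no filter and with a filter at 5 FPKM, and 1 to 2 with 1 library left out. THZ1 in null cells called 2 members, 3 with median-of-ratios scaling, library totals or no filter, and 1 with the filter at 5 FPKM, which Kcnk5 did not pass. Under THZ1 2 were called between the lines, and 3 with no filter or without null THZ1 replicate 2. THZ1 in heterozygous cells called 2406 genes, 1309 with no filter, and 797 to 2534 with 1 library left out (797 without THZ1 replicate 1, 1048 without THZ1 replicate 2, 1153 without DMSO replicate 1). Values turned sign with median-of-ratios scaling for Ano6 (THZ1 in null cells 0.0078, difference of responses 0.0537), Atp1b1 (null against heterozygous under THZ1, 0.0967) and Ano1 (0.0923), and with upper-quartile scaling for Ano6 (0.0328), Atp1b1 (0.0767) and Ano1 (0.0734). The cause of these changes was not tested. Replicate numbers are not said to pair libraries, and deviations of same-numbered libraries correlated at -0.09 to 0.14 between groups; with the replicate block Kcnk5 passed between the lines under DMSO (limma adjusted p = 0.0428), and the heterozygous THZ1 comparison had 2387 calls. The comparison of a fit with fewer groups could not be run for the difference of responses, which needs all 8 libraries. Depth limits Kcnn4, Kcnq1 and Kcnk6, which rest on at most 14.7 fragments in a library.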
